A study of Homo sapiens with 8 samples.

Results

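Condensin I, condensin II and topoisomerase II were followed in factory RNA-Seq counts over exons through the 10 genes that encode the condensin subunits SMC2, SMC4, NCAPD2, NCAPG, NCAPH, NCAPD3, NCAPG2 and NCAPH2 and the topoisomerases TOP2A and TOP2B. The genes were chosen by name, and all 10 were found once each among the 28265 genes of the count tables and passed the filter on low counts in every comparison. The RNA came from IMR90, a line of human fetal lung fibroblasts, and was sequenced by factory RNA-Seq, which the study uses to profile nascent RNA, although counts over exons can include spliced RNA. There were 4 conditions with 2 libraries each: control cells, labelled young, cells after 3 days and cells after 6 days with inflachromene (ICM), a small molecule that targets the chromatin proteins HMGB1 and HMGB2, and cells labelled MetaICM. The labels do not say what MetaICM is, and only the series' design text adds that these were low-passage cells treated with it. All groups were low-passage cells. Nothing in the labels says that the replicates were separate cultures, so p-values measure only the spread between these libraries, which may be technical.

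Condensins are ring-shaped protein complexes that extrude loops of DNA and fold chromatin into rod-shaped mitotic chromosomes. Both contain the ATPases SMC2 and SMC4, and differ in 3 further subunits: condensin I, which reaches the chromosomes after the nuclear envelope breaks down, has NCAPD2, NCAPG and NCAPH, and condensin II, which is nuclear throughout the cell cycle, has NCAPD3, NCAPG2 and NCAPH2. Topoisomerase II passes one DNA duplex through another and so disentangles sister chromatids. TOP2A is made in proliferating cells and builds up before mitosis, whereas TOP2B is present in proliferating and in non-dividing cells.

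Promoters are shown for 4 of the genes: TOP2A and TOP2B, the paralogues whose levels moved apart, and NCAPD2 and NCAPH, both subunits of condensin I. Each is the run of 250 bases before a transcription start in RefSeq's promoter table (GRCh38.p14), on the strand of the gene and read 5′ to 3′. Capitals mark the CCAAT box (CCAAT, bound by NF-Y) and the CHR element (TTTGAA, bound by the DREAM and MuvB complexes, which control genes of the cell cycle), searched for on both strands, so that ATTGG and TTCAAA are the same motifs on the other strand. TOP2A lies at chr17:40417897-40418146 (minus strand), TOP2B at chr3:25664908-25665157 (minus strand), NCAPD2 at chr12:6493852-6494101 (plus strand) and NCAPH at chr2:96335516-96335765 (plus strand).
TOP2A: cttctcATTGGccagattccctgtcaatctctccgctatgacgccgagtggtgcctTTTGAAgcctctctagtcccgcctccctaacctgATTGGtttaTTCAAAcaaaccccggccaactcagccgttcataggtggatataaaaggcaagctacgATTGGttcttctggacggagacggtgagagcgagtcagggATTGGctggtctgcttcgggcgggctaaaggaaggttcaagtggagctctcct
TOP2B: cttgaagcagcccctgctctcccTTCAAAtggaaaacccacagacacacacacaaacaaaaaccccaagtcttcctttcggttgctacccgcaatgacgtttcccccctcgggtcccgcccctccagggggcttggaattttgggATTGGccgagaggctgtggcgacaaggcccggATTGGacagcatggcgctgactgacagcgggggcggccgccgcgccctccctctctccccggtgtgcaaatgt
NCAPD2: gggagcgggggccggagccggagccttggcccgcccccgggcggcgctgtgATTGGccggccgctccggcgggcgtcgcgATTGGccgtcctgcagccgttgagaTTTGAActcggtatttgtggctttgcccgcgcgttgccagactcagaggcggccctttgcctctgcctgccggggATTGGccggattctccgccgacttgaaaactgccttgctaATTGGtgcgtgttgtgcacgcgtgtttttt
NCAPH: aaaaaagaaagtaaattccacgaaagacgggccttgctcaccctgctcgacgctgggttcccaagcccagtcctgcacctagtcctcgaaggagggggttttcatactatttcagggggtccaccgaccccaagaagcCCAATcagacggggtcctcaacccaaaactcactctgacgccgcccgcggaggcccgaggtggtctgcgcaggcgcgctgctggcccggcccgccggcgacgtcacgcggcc

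In these bases TOP2A held 4 CCAAT boxes and 2 CHR matches, NCAPD2 4 CCAAT boxes and 1 CHR match, and NCAPH 1 CCAAT box and no CHR match. TOP2B, whose table entry lists 2 start sites, held 2 CCAAT boxes and 1 CHR match before the start shown and no match before the other. The table had 13 windows for 9 of the 10 genes, all but NCAPH2. Over the whole window of 300 bases, which adds the 50 bases after the start, CCAAT occurred in at least 1 window of 5 of the 9 genes and in 34.6% of all 35116 promoters. TTTGAA occurred in 8 of the 9 and in 15.2% of all promoters. The E2F sites TTTGGCGC, TTTGCCGC, TTTCGCGC and TTTCCCGC on both strands, occurred in 1 of the 9, NCAPD3, and in 3.31% of all promoters. Genes with several windows had more bases in which to match, and CCAAT and TTTGAA occurred before both TOP2A and TOP2B.

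The libraries held 12095123 to 23166405 counted read pairs, and the 10 genes had 25 to 14127 counts each. Levels are given as CPM, the count scaled to library size, after TMM normalization of the 8 libraries, and per kb of exon where different genes are compared. Replicate libraries differed by more than sampling noise in every group. Fibroblast markers (10 genes, with FN1 the highest) summed to between 54560 and 60490 CPM in control and between 26520 and 27360 after 3 days. Their sum was between 20950 and 21150 after 6 days and between 34600 and 37580 in MetaICM. After 3 days 7 of the 10 tested fell, beside 13.2% of all genes tested, and after 6 days 6 of 9, beside 17.2%. COL1A1 (log2FC -1.23 and -2.17) and FN1 (-1.35 and -1.78) fell, whereas COL3A1 (-0.10 and -0.078) and VIM (-0.41 and -0.53) were not called. In MetaICM FN1 was lower than in control (-1.12) and VIM higher (0.68), where 8.99% and 7.41% of all genes tested fell and rose. Epithelial markers (5 genes) summed to between 68.0 and 103 CPM in control, 36.3 and 37.1 after 3 days, 35.0 and 37.0 after 6 days and 66.4 and 69.3 in MetaICM. The keratins KRT18 (log2FC -1.27 and -1.33) and KRT19 (-3.11 and -4.37) fell after 3 and 6 days, whereas KRT8 (-0.66 and -0.48) was called at neither time. Endothelial markers (3 genes) summed to between 2.32 and 2.85, 3.86 and 4.25, 4.56 and 4.94, and 1.43 and 2.23 CPM in the same order, and VWF rose after 6 days (log2FC 0.88). Blood markers (3 genes) summed to between 4.47 and 6.00, 17.5 and 21.3, 18.4 and 21.2, and 13.3 and 13.4 CPM, and CD68, a lysosomal protein of macrophages, rose after 3 days (1.92), after 6 days (1.90) and in MetaICM (1.41). EPCAM, CDH1, PECAM1, CDH5 and HBB stayed under 1 CPM in every library. In bulk libraries, fewer cells that make an RNA and less of that RNA per cell cannot be told apart, and the part of these markers in the results was not tested.

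In control, the 10 genes together made up 0.204% and 0.218% of a library. At 3 days of ICM their sum was 0.0548% and 0.0574%, at 6 days 0.0554% and 0.0533%, and in MetaICM 0.142% and 0.139%. The share was lower in all 4 ICM libraries than in MetaICM, and lower in MetaICM than in control. This sum leans on the topoisomerases. TOP2A gave 14127 of the 35916 counts in the first control library, and TOP2B 5638 of 11630 in the first 3-day library.

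**Figure D1:**
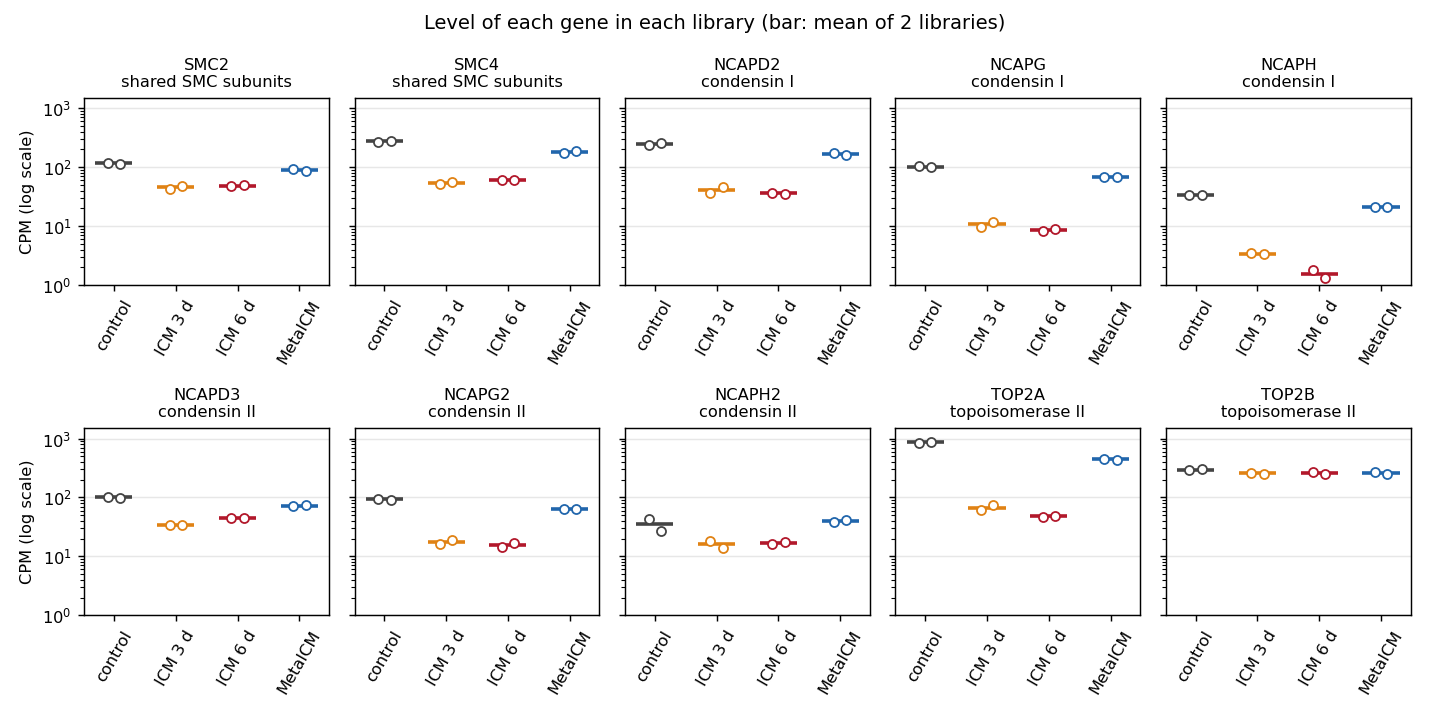
Level of each of the 10 genes in CPM (log scale) in the 2 libraries of each condition, with points for libraries and bars for their mean. In 9 panels the points for 3 and 6 days of ICM lie below those of control and MetaICM, whereas the points of TOP2B lie between 248 and 300.4 CPM in all conditions.

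A gene was taken as changed with an adjusted p-value under 0.05 (edgeR's quasi-likelihood test, Benjamini-Hochberg over all genes tested) and an absolute log2FC, the log2 of the fold change, over 0.6. After 3 days of ICM, 9 of the 10 genes fell, against a background of 13.2% of the 15692 genes tested. After 6 days the same count, 9 of 10, fell, against 17.2% of 15950 genes, and TOP2B was the gene not called at either time. The median log2FC of the 10 genes was -2.37 after 3 days and -2.36 after 6 days, whereas that of all genes was 0.0094 and -0.0013. Both comparisons, and that of MetaICM, share the 2 control libraries.

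TOP2A (chr17:38544777-38574148 of hg19, minus strand), the topoisomerase of dividing cells, had 839.9 and 879.3 CPM in control, 60.3 and 73.9 after 3 days, 46.7 and 49.1 after 6 days, and 454.4 and 438.5 in MetaICM. No group overlapped with another, and all 4 ICM libraries lay below MetaICM, which lay below control. Its log2FC was -3.69 ± 0.15 (SE, n = 2 against 2 libraries) after 3 days, with an edgeR adjusted p of 1.42e-08, and -4.17 ± 0.12 after 6 days, with 2.35e-08. The mean level was 7.80% of control after 3 days and 5.58% after 6 days.

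TOP2B (chr3:25639396-25705990 of hg19, minus strand), the paralogue present in dividing and non-dividing cells, had 291.9 and 300.4 CPM in control, 259.2 and 251.2 after 3 days, 268.8 and 248.1 after 6 days, and 275.5 and 251.8 in MetaICM. Control lay above the other libraries, which overlapped with each other. The difference was small, with log2FC of -0.22 (95% confidence interval -0.48 to 0.041) after 3 days, -0.20 (-0.44 to 0.037) after 6 days and -0.17 (-0.41 to 0.070) in MetaICM. None passed the edgeR test, with adjusted p of 0.194, 0.158 and 0.266, and all 3 intervals ended short of a log2FC of -0.6.

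The ratio of TOP2A to TOP2B, in counts per kb of exon within a library and so free of scaling between libraries, was 2.77 and 2.82 in control, 0.224 and 0.284 after 3 days, 0.168 and 0.191 after 6 days, and 1.59 and 1.68 in MetaICM. TOP2A was thus the more abundant paralogue in control and MetaICM and TOP2B in all 4 ICM libraries. The mean log2 ratio of the 6 other libraries lay below that of the 2 control libraries by a difference of -2.74. An exact two-sided permutation test gave p = 0.0714, the smallest that 2 against 6 libraries allow. These 6 pool 3 days of ICM (mean log2 ratio -1.99), 6 days (-2.48) and MetaICM (0.71), beside 1.48 in control. The difference therefore describes no single condition. Pairs of conditions cannot be tested in this way with 2 libraries each.

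The shared subunits SMC2 and SMC4, the ATPases that form the V-shaped core of both condensins, both fell in ICM. SMC4 (chr3:160117438-160152741 of hg19, plus strand) had 265.3 and 282.6 CPM in control, 52.96 and 56.4 after 3 days, 61.8 and 61.6 after 6 days, and 173.7 and 188.3 in MetaICM. SMC2 (chr9:106856541-106903700 of hg19, plus strand) had 119.7 and 115.4 CPM in control, 43.1 and 47.9 after 3 days, 47.4 and 50.1 after 6 days, and 94.2 and 84.7 in MetaICM. For both genes ICM, MetaICM and control did not overlap, while for SMC2 the 3-day and 6-day libraries did.

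SMC4 changed by a log2FC of -2.33 ± 0.13 (SE) after 3 days and -2.15 ± 0.11 after 6 days, with edgeR adjusted p of 7.56e-08 and 2.76e-07. SMC2 changed by -1.37 ± 0.13 and -1.27 ± 0.11, with adjusted p of 8.12e-06 and 1.11e-05. Although their products are partners in the same complexes, the level of SMC4 stood at 20.0% and 22.5% of control and that of SMC2 at 38.7% and 41.4%. Per kb, the ratio of SMC4 to SMC2 was 2.56 and 2.83 in control, 1.42 and 1.36 after 3 days, 1.51 and 1.42 after 6 days, and 2.13 and 2.57 in MetaICM. The 4 ICM libraries lay below the other 4, and this ratio was not tested.

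The 3 subunits of condensin I had a median log2FC of -3.26 after 3 days and -3.56 after 6 days, and all 3 fell at both times. NCAPH (chr2:97001504-97042829 of hg19, plus strand), the kleisin that closes the ring, was the lowest of the 10 genes per kb in every condition. It had 34.1 and 33.5 CPM in control, 3.49 and 3.37 after 3 days, 1.77 and 1.33 after 6 days, and 21.3 and 20.7 in MetaICM, without overlap between conditions. Its log2FC was -3.30 ± 0.18 (SE) after 3 days and -4.44 ± 0.19 after 6 days, with edgeR adjusted p of 7.53e-08 and 1.01e-07. The 6-day libraries held only 33 and 25 counts of NCAPH, so its level there is less precise than the others.

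NCAPG (chr4:17812602-17846487 of hg19, plus strand), a HEAT-repeat subunit that binds DNA together with the kleisin, had 103.8 and 99.4 CPM in control, 9.65 and 11.7 after 3 days, 8.32 and 8.98 after 6 days, and 67.5 and 68.0 in MetaICM. Its log2FC was -3.26 ± 0.15 and -3.56 ± 0.13 after 3 and 6 days, with edgeR adjusted p of 2.89e-08 and 4.75e-08. NCAPD2 (chr12:6603268-6641121 of hg19, plus strand), the other HEAT-repeat subunit of condensin I, had 241.6 and 255.5 CPM in control, 37.2 and 45.4 after 3 days, 36.6 and 35.7 after 6 days, and 173.1 and 160.7 in MetaICM. It changed by -2.60 ± 0.14 and -2.79 ± 0.12, with adjusted p of 6.80e-08 and 7.38e-08. Neither gene's ICM libraries overlapped with control or MetaICM.

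The 3 subunits of condensin II also fell at both times, with a median log2FC of -1.54 after 3 days and -1.15 after 6 days. NCAPG2 (chr7:158423861-158497495 of hg19, minus strand), a HEAT-repeat subunit, had 93.6 and 91.6 CPM in control, 16.1 and 19.0 after 3 days, 14.4 and 17.1 after 6 days, and 63.0 and 64.5 in MetaICM. It changed by a log2FC of -2.41 ± 0.14 (SE) and -2.56 ± 0.13, with edgeR adjusted p of 1.73e-07 and 2.93e-07. These values lay nearer to those of NCAPD2 and SMC4 than to those of the other subunits of condensin II.

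NCAPD3 (chr11:134020008-134095355 of hg19, minus strand), the other HEAT-repeat subunit, had 101.9 and 98.4 CPM in control, 34.2 and 34.65 after 3 days, 45.1 and 45.2 after 6 days, and 70.9 and 74.6 in MetaICM. It changed by -1.54 ± 0.13 and -1.15 ± 0.11 after 3 and 6 days, with edgeR adjusted p of 2.98e-06 and 2.26e-05. Its 6-day libraries thus lay between those of 3 days and of MetaICM.

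NCAPH2 (chr22:50946645-50963209 of hg19, plus strand), the kleisin of condensin II, had 43.5 and 26.7 CPM in control, 18.5 and 13.7 after 3 days, 16.0 and 17.5 after 6 days, and 38.7 and 41.3 in MetaICM. The 2 control libraries lay on either side of MetaICM, and both lay above all ICM libraries. Its log2FC was -1.12 ± 0.22 (SE) after 3 days and -1.08 ± 0.20 after 6 days, with edgeR adjusted p of 0.00265 and 0.00194. The size depended on the control libraries. Without the first the log2FC was -0.72 and -0.69, and without the second -1.44 and -1.38, all past the fold threshold.

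**Figure D2:**
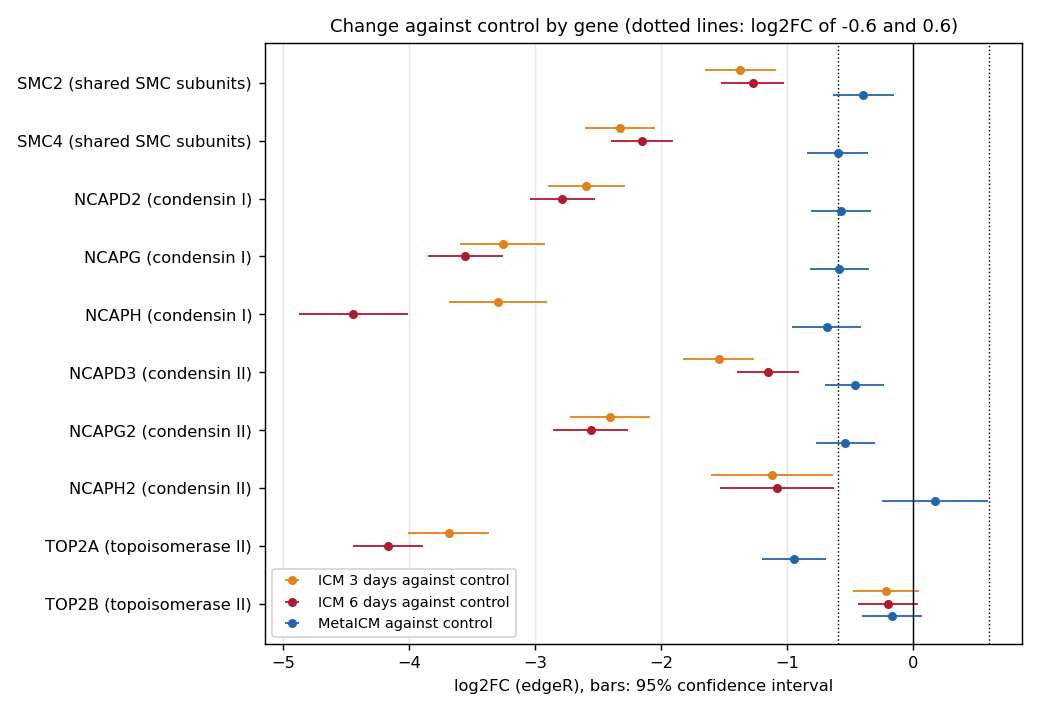
log2FC against control of the 10 genes for 3 days of ICM, 6 days of ICM and MetaICM, with 95% confidence intervals as bars and dotted lines at -0.6 and 0.6. TOP2A and the condensin I subunits reach log2FC of -2.60 to -4.44 in ICM, SMC2, NCAPD3 and NCAPH2 lie between -1.08 and -1.54, and TOP2B lies near 0 in all 3 comparisons.

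The summed level per kb of NCAPD2, NCAPG and NCAPH over that of NCAPD3, NCAPG2 and NCAPH2 was 1.98 and 2.33 in control, 0.877 and 1.13 after 3 days, 0.788 and 0.729 after 6 days, and 1.84 and 1.67 in MetaICM. The sum of the condensin I subunits was therefore the larger in control and MetaICM, and the smaller in 3 of the 4 ICM libraries. NCAPD2 was its largest part in control, with 51.5 CPM per kb beside 22.15 for NCAPG and 5.60 for NCAPH. NCAPH itself lay below all 3 condensin II subunits in every condition. The mean log2 ratio was lower by a difference of -0.97 in the 6 other libraries than in the 2 of control. An exact two-sided permutation test gave p = 0.0714, the smallest possible. The 6 libraries pool 3 days of ICM (mean log2 ratio -0.0082), 6 days (-0.40) and MetaICM (0.81), beside 1.10 in control. With only the exon bases that no other gene shares as length, a choice made after seeing the data, the difference was -1.06.

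**Figure D3:**
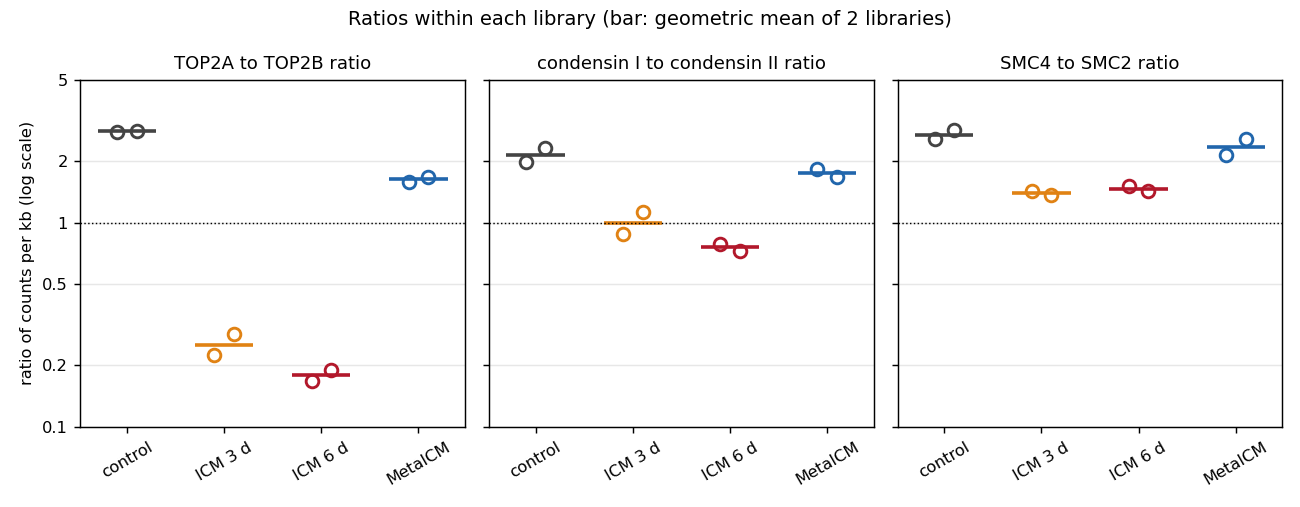
Ratios of counts per kb of exon (log scale) of TOP2A to TOP2B, of condensin I to condensin II subunits and of SMC4 to SMC2 in each library, with bars for the geometric mean of the 2 libraries of a condition. The TOP2A to TOP2B ratio falls from 2.80 in control to 0.252 and 0.179 after 3 and 6 days and is 1.63 in MetaICM, and the other ratios are also lower in ICM than in control and MetaICM.

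The order of the levels per kb changed with ICM. In control it ran from TOP2A (150.9 CPM per kb) through TOP2B (54.0), NCAPD2 (51.5), SMC4 (50.9), NCAPG (22.2), SMC2 (18.9), NCAPG2 (15.1), NCAPD3 (12.7) and NCAPH2 (9.27) to NCAPH (5.60). Of these neighbours, only the libraries of NCAPD2 and SMC4 overlapped. After 6 days TOP2B led with 47.1 CPM per kb, followed by SMC4 with 11.5, TOP2A with 8.42 and SMC2 with 7.83. In that order, over all exon bases, NCAPG had dropped to the ninth place with 1.89 CPM per kb, below all 3 subunits of condensin II. NCAPH was the last with 0.257. Over the exon bases that no other gene shares, NCAPG had 2.93 CPM per kb and lay above NCAPG2 with 2.56. MetaICM was again led by TOP2A (78.4 CPM per kb) and TOP2B (48.1). Over all exon bases, NCAPD2 and SMC4, NCAPG and SMC2, and NCAPH2 and NCAPG2 overlapped in it. Over the unshared bases NCAPG had 22.9 CPM per kb in MetaICM, above SMC2 with 14.4 and without overlap. NCAPH2, with 13.6, then overlapped with SMC2 and lay above NCAPG2 with 10.4.

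These levels depend on how reads in overlapping exons were counted, since pairs on more than 1 gene were left out without regard to strand. Of its 4586 exon bases NCAPG shares 1633 with LCORL, NCAPD3 shares 2137 of 7868 with JAM3, VPS26B and SNORD153, NCAPH2 shares 857 of 3790 with SCO2, and TOP2B shares 27 of 5485 with RARB. RARB rose by 1.55 and 0.88 on the log2 scale after 3 and 6 days and was lower in MetaICM by a log2FC of -0.95, and SCO2, with 5 to 30 counts in a library, was higher in MetaICM by 1.51. Over the unshared bases NCAPG had 34.4 CPM per kb in control and 2.93 after 6 days, NCAPD3 17.5 and 7.88, and NCAPH2 12.0 and 5.71. NCAPD3 then lay above NCAPG2 in control, and NCAPG lay above NCAPG2 after 6 days. Changes of a gene between conditions do not depend on its length.

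From 3 to 6 days of ICM, 1 of the 10 genes fell, NCAPH, against 4.54% of the 15845 genes tested. None of the 10 rose. As only 559 of the 15845 genes tested did, this says nothing particular about the 10 genes. NCAPH changed by a log2FC of -1.15 ± 0.29 (SE), with an edgeR adjusted p of 0.00769, though without the second 6-day library the change was -0.96 with an adjusted p of 0.0991. TOP2A had a log2FC of -0.48 (95% interval -0.71 to -0.26) with an adjusted p of 0.00342, short of the threshold of 0.6, which it passed with -0.62 when the first 3-day library was left out. NCAPD3 went the other way with 0.39 (0.17 to 0.60) and an adjusted p of 0.0122, also short of 0.6. The other 7 genes had log2FC of -0.30 to 0.17 and adjusted p over 0.2.

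In MetaICM 3 of the 10 genes were lower than in control, TOP2A, NCAPH and SMC4, against 8.99% of the 15904 genes tested. TOP2A changed by a log2FC of -0.95 ± 0.12 (SE), with an edgeR adjusted p of 5.95e-04, which left 51.9% of the control level. NCAPH changed by -0.69 ± 0.12 and SMC4 by -0.60 ± 0.11, with adjusted p of 0.00382 and 0.00389. SMC4 was at the edge of the fold threshold and lost its call under 5 alternatives, which gave log2FC of -0.57 to -0.60. Without either MetaICM library both NCAPH and SMC4 lost their calls, with adjusted p of 0.0535 to 0.104, while TOP2A kept its own. SMC4 was also not called without the second control library (-0.55).

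Another 5 genes had adjusted p under 0.05 in MetaICM but did not reach the fold threshold. These were NCAPG with -0.59, NCAPD2 with -0.58, NCAPG2 with -0.54, NCAPD3 with -0.46 and SMC2 with -0.40 on the log2 scale, with edgeR adjusted p between 0.00374 and 0.0227. NCAPG passed the fold threshold with upper-quartile factors (-0.61), with thinned libraries (-0.60) and without the second control library (-0.62), and NCAPD2 without the first (-0.61). NCAPH2 had 0.17 (95% interval -0.25 to 0.59) with an adjusted p of 0.524, and the sign of this value rested on the control libraries, at 0.58 without the first and -0.12 without the second. The median log2FC of the 10 genes was -0.56, against -0.0011 for all genes.

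Against ICM, 9 of the 10 genes were higher in MetaICM, at 3 days against a background of 13.1% of 16209 genes and at 6 days against 15.7% of 16036 genes. TOP2B was again the gene not called, with log2FC of 0.051 and 0.029 and edgeR adjusted p of 0.648 and 0.768. TOP2A stood higher by a log2FC of 2.74 ± 0.10 (SE) than at 3 days and 3.22 ± 0.080 than at 6 days, with adjusted p of 7.16e-11 and 4.52e-18. Over condensin I the median was 2.61 and 2.97, led by NCAPG (2.68) at 3 days and NCAPH (3.76) at 6 days. Over condensin II it was 1.30 and 1.26, with NCAPG2 at 1.87 and 2.02, NCAPD3 at 1.09 and 0.69 and NCAPH2 at 1.30 and 1.26. SMC4 was higher by 1.73 and 1.55 and SMC2 by 0.98 and 0.88. These comparisons share the ICM and MetaICM libraries with the others.

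There were 4 genes that start within 1 kb upstream of a member on the other strand. DCAF16, which starts 222 bases from NCAPG on the other strand, had 58.3 and 73.4 CPM in control, 62.1 and 70.2 after 3 days, and 78.3 and 77.3 after 6 days, and was called at neither time, with log2FC of 0.0029 and 0.24. MRPL51, 840 bases from NCAPD2, had log2FC of 0.29 and 0.19, and LMF2, 514 bases from NCAPH2, had -0.013 and -0.15, none of them called. LMF2 also differed between the control libraries, with 94.1 and 64.8 CPM, in the same direction as NCAPH2. IFT80, 425 bases from SMC4, had 9 to 18 counts in a library and log2FC of -0.61 and -0.26 with edgeR adjusted p of 0.369 and 0.655. LCORL, which shares exon bases with NCAPG on the other strand, fell by 1.22 and 1.13 on the log2 scale after 3 and 6 days, and as strand was not used, reads of LCORL and NCAPG could be told apart only outside the shared bases.

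Of 13 partners and regulators of mitotic chromosome assembly, 11 fell after 3 days and 11 after 6 days, beside 13.2% and 17.2% of all genes tested, with median log2FC of -3.50 and -3.86. KIF4A, the kinesin that works with condensin on the chromosome axis, changed by -3.79 and -4.70, and MKI67, the coat protein of mitotic chromosomes, by -4.56 and -5.53. AURKB, the kinase that promotes loading of condensin I, changed by -3.96 and -4.85, and CDK1, which phosphorylates condensin subunits at mitotic entry, by -3.30 and -3.86. The other 2 were MCPH1, which restrains condensin II, with 0.084 and -0.0087, and AKAP8, a condensin anchor, with 0.34 and 0.057. In MetaICM 3 of the 13 fell, namely MKI67 (-1.13), KIF4A (-0.76) and PLK1 (-0.64), with a median of -0.43, beside 8.99% of all genes tested that fell.

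In a list of the other topoisomerases and of partners of topoisomerases, TDP2 was the only gene called higher than in control after 3 or 6 days. None of TOP1, TOP1MT, TOP3A and TOP3B was called against control. Of the 10 genes of this list, 4 fell and 1 rose after 3 days as after 6 days, with median log2FC of -0.54 and -0.53. Of all genes tested, 13.2% and 17.2% fell and 8.85% and 13.3% rose. BLM, RMI1 and RMI2 fell at both times. TDP1 was called after 3 days (-0.70), and after 6 days it had -0.53 with an edgeR adjusted p of 0.00869, short of 0.6. TDRD3 was called after 6 days (-0.63), and after 3 days it had -0.54 with an adjusted p of 0.0511. Between 6 and 3 days TDP1 had 0.17 and TDRD3 -0.097, with adjusted p of 0.359 and 0.740. RMI2, with 4 to 50 counts in a library, changed by -1.56 and -1.87. BLM, the helicase that acts with TOP3A to resolve crossed strands, changed by -3.32 and -4.03, and its cofactor RMI1 by -1.12 and -1.27. TDP2, which removes trapped topoisomerase II from DNA ends, rose by 1.83 and 2.21, from 18.5 and 18.9 CPM in control to 70.2 and 63.2 after 3 days and 85.2 and 88.2 after 6 days. In MetaICM it had 20.3 and 20.6 CPM and was not called. TOP1, the main enzyme that relaxes supercoils, had -0.55 and -0.36 with edgeR adjusted p of 0.00777 and 0.0270, short of 0.6. In MetaICM RMI1 (-0.98) and BLM (-0.89) were the 2 genes of the list that fell, beside a background of 8.99% of all genes tested that fell and 7.41% that rose.

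Cohesin, which holds sister chromatids together, and the SMC5/6 complex, which acts in DNA repair, are built around SMC proteins too. Of 5 cohesin core genes, SMC1A, SMC3 and RAD21 fell at both times, by 1.01, 0.82 and 0.77 after 3 days and by 1.18, 0.97 and 0.90 after 6 days on the log2 scale, whereas STAG1 had 0.0066 and 0.18 and STAG2 -0.20 and -0.033, neither called. Of all genes tested, 13.2% and 17.2% fell at these times. In MetaICM RAD21 had -0.47 and STAG2 -0.36, with edgeR adjusted p of 0.0157 and 0.0275, short of 0.6, and the other 3 had adjusted p above 0.05. Of 6 genes of the SMC5/6 complex, SMC6 fell by 1.25 and 1.18 and NSMCE4A by 0.72 and 0.80, and SMC5 had -0.0046 and -0.18. NSMCE3 rose by 1.02 after 6 days and by 0.77 in MetaICM, where 13.3% and 7.41% of all genes tested rose. After 3 days NSMCE3 had 0.63 and was not called, with an edgeR adjusted p of 0.0602. The cohesin list had median log2FC of -0.77 and -0.90 and the SMC5/6 list 0.017 and -0.22, beside -3.26 and -3.56 for condensin I and -1.54 and -1.15 for condensin II. The difference between these lists was not tested.

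**Figure D4:**
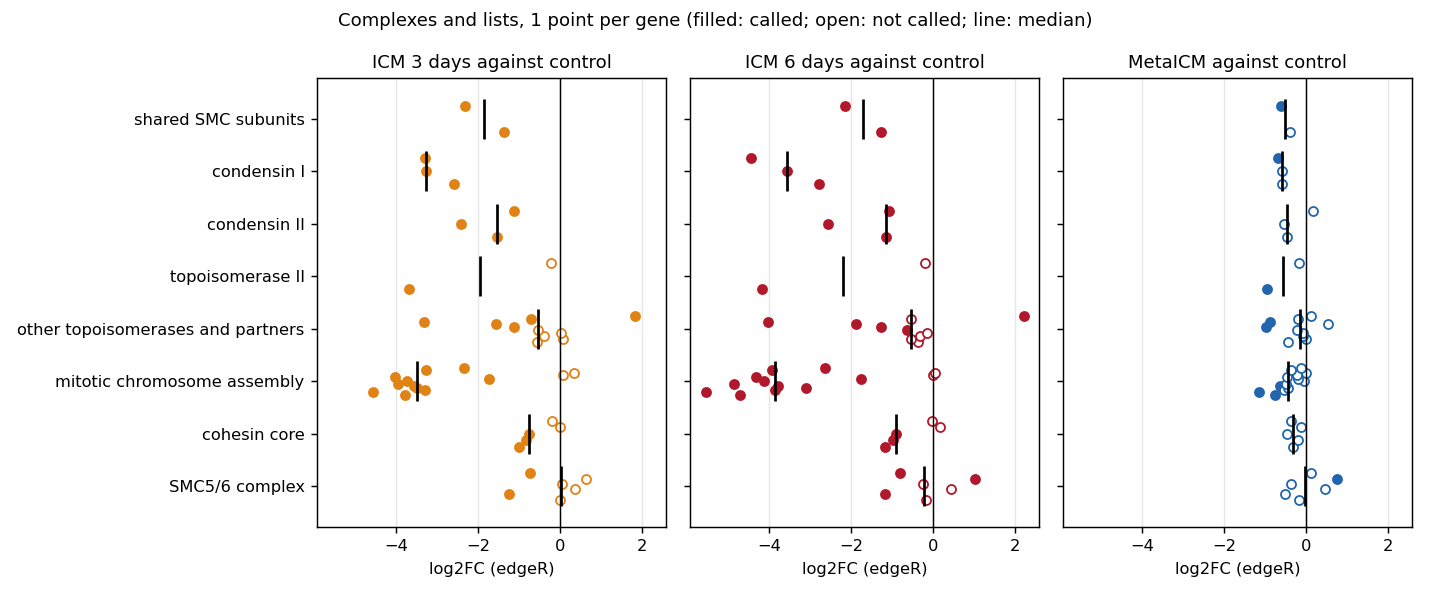
log2FC against control of every gene of the 2 condensins, topoisomerase II and 4 lists of related genes, in panels for 3 days of ICM, 6 days of ICM and MetaICM, with filled points for called genes and vertical lines for medians. Mitotic chromosome assembly (median -3.50 and -3.86) lies as far to the left in ICM as condensin I, the cohesin core and SMC5/6 lists lie nearer to 0, and TDP2 is the point far to the right.

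The genes whose level followed that of TOP2A most closely over the 8 libraries were CIT, HJURP and BUB1B, with a root mean square difference of 0.14, 0.16 and 0.16 in log2 CPM after centring, among 11165 genes with a mean of at least 5 CPM. CIT is a kinase of cytokinesis, HJURP the chaperone of the centromeric histone CENP-A and BUB1B a kinase of the spindle checkpoint. NCAPG ranked 21st and NCAPH 23rd in this order (0.25 for both), NCAPD2 117th (0.55), NCAPG2 152nd (0.66) and SMC4 210th (0.80). SMC2, NCAPD3 and NCAPH2 differed from TOP2A by 1.20 to 1.26, and TOP2B by 1.69. Nearest to TOP2B were ATL3, CYP20A1 and TERF1, with 0.035, 0.036 and 0.037. As all libraries of a condition share its treatment, these figures describe the 4 conditions and are given with no test.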

How the data were processed

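Factory RNA-Seq libraries of IMR90 cells (2 in each of 4 conditions) were used. Read pairs were mapped by the authors to hg19 with STAR (2.6.0c per the submitters' notes), and the deposited counts are whole numbers of read pairs on the exons of each RefSeq gene from featureCounts (1.6.3 per the file headers), unstranded, not normalized, without multi-mapping pairs or pairs on several genes. The labels name poly(A)+ selection for these libraries. Intronic counts, on which the study based its nascent RNA results, were not analysed here, so exonic counts can include spliced RNA. Totals ran from 12095123 to 23166405.

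Pairs of conditions were fitted with edgeR 4.0.16 (R 4.3.3; TMM, filterByExpr with a count minimum of 10, quasi-likelihood test) over all genes. The main threshold was an adjusted p-value of 0.05, as in the study's results, with an absolute log2FC of 0.6. SE is the absolute log2FC divided by the square root of the F statistic. Simulated data with 200 changed genes were used to test the fit. Promoters came from RefSeq (GRCh38.p14), and gene positions and exon lengths from the count tables. Alternatives were DESeq2 1.42.0, other size factors and filters, 1 fit of all libraries, an adjusted p of 0.01, a replicate block, libraries thinned to the smallest total and each library left out. The named genes were the 10 members, 4 lists, neighbours or overlapping genes and the 3 nearest profiles of each topoisomerase. One gene of the mitotic chromosome assembly list is not reported here and was left out of its counts and medians. Members and lists were chosen with earlier results of these data known. Python 3.11.15, numpy 2.4.6, pandas 2.3.3 and matplotlib 3.10.9 were used.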

Additional observations from a re-analysis of the deposited data

Results flagged for a closer look

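NCAPH differed between 6 and 3 days of ICM by a log2FC of -1.15 (edgeR adjusted p = 0.00769), lower at 6 days in 2 of 2 libraries. TOP2A differed by -0.48 (edgeR adjusted p = 0.00342), also lower in both 6-day libraries, and short of the fold threshold. NCAPD3 differed by 0.39 (edgeR adjusted p = 0.0122), higher in both 6-day libraries. With 2 libraries per condition, no test for outlying libraries was possible.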

How the results depend on the processing

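The counts of 9 genes called for ICM and for MetaICM against ICM stayed within 1.5 times under every alternative. With a library left out, the count for MetaICM against control ran from 1 (without either MetaICM library) to 4, against 3, and that for 6 against 3 days from 0 (without the second 6-day library) to 2 (without the first 3-day library), against 1. In such fits the lone library is assumed to vary like the others. The log2 difference of the TOP2A to TOP2B ratio ran from -3.14 to -2.47 and that of the condensin ratio from -1.11 to -0.85, with permutation p that cannot pass 0.05. Values near 0 changed sign. With library totals TOP2B had -0.014 for 6 against 3 days and -0.0042 for MetaICM against 3 days. With a library left out, TOP2B ran from -0.032 to 0.069 for 6 against 3 days, from -0.0094 to 0.11 for MetaICM against 3 days and from -0.028 to 0.095 for MetaICM against 6 days, and NCAPH2 from -0.12 to 0.58 for MetaICM against control and from -0.16 to 0.29 for 6 against 3 days. Over all genes, the 1430 lower and 1179 higher in MetaICM than in control became 868 and 664 at an adjusted p under 0.01, 807 lower without the first MetaICM library, 580 and 469 without the second, and 2116 higher without the first control library, while the 1389 that rose after 3 days became 851 without the first 3-day library. With a replicate block the counts of members called were 9, 9, 3, 1, 9 and 9, as without it. The labels give only replicate numbers, and samples of the same number deviated with correlations of -0.17 to 0.28, so the numbers were not taken as pairs. Depth limits NCAPH most, with 25 and 33 counts after 6 days.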
